A study of Mus musculus with 12 samples.

Results

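The genes described here encode the proteins of the cytosolic ribosome. They were chosen by name, as the protein-coding genes called Rpl or Rps followed by a number, together with Rplp0, Rplp1, Rplp2 and Rpsa. This gave 79 of the 14852 genes in the expression table and, in a separate table of ac4C peaks, 114 of 19049 peaks. Of the 79 genes, 44 encode proteins of the large 60S subunit, 32 encode proteins of the small 40S subunit and 3 encode the stalk of the large subunit. The RNA level of Rpl24 was not analysed here.

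A ribosome holds ribosomal RNA and a set of proteins that are made in the cytoplasm, carried into the nucleus and assembled in nearly equal numbers. Most of their mRNAs begin with a short run of pyrimidines, the 5′ terminal oligopyrimidine or TOP tract, through which mTORC1 and LARP1 set how strongly they are translated. Free Rpl5 and Rpl11, bound to 5S ribosomal RNA, can hold the ubiquitin ligase Mdm2 away from p53. N4-acetylcytidine (ac4C) is a modified base that the acetyltransferase NAT10 places on RNA, and NAT10 also acetylates ribosomal RNA.

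The cells were ID8, an established mouse line derived from ovarian surface epithelium, either untreated (control) or given cisplatin, a platinum drug that forms crosslinks in DNA. The sources used here do not give the dose or the time of treatment. Fragmented RNA depleted of ribosomal RNA was sequenced either directly (input) or after precipitation with an antibody against ac4C (IP), which gives 12 libraries in 4 groups of 3: control input, control IP, cisplatin input and cisplatin IP. The study asked how NAT10 and ac4C act on RNA under cisplatin. RNA levels are available for the 6 input libraries, and the IP libraries enter only through the authors' deposited table of peaks, which holds no value per library. The labels do not say that replicates are separate cultures, so each p-value reflects the spread among these libraries alone, and that spread may be technical.

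Between 20134902 and 21336306 fragments were recovered from the values of the control input libraries and between 21752961 and 29687163 from those of cisplatin, so the treated libraries were deeper. Pearson's r of log2(FPKM + 1) over genes was 0.989 or higher between replicates and at most 0.847 between treatments. Of 11 markers of ovarian surface epithelium or mesothelium, 9 were tested, with a summed level of 2467 to 2509 FPKM in control and 3564 to 3953 FPKM with cisplatin, and Krt7 lay at 0.178 FPKM or lower on average. Of the 9, 5 were higher (Krt8, Krt18, Krt19, Vim and Msln) and 3 lower (Cdh2, Upk3b and Wt1), the last from 45.1 ± 1.08 to 12.4 ± 0.598 FPKM (SD, n = 3). Of 6 leukocyte markers the table lists Cd68 alone, at 2.22 to 2.57 FPKM in control and 7.50 to 9.72 FPKM with cisplatin; it lists none of 3 endothelial markers, and 2 of 3 fibroblast markers summed to 18.9 to 19.8 and 11.1 to 12.7 FPKM. Whether depth or these markers have a part in the values below was not tested.

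On the scale of the deposited values, most ribosomal protein genes had slightly more RNA after cisplatin. With limma on log2(FPKM + 1) and Benjamini-Hochberg adjustment over the 11449 genes tested, 58 of the 79 members rose, where 40.1% of all tested genes did, and 4 fell, where 41.1% of all tested genes did. The other 17 did not pass the threshold of 0.05, and over all tested genes 81.3% passed it in either direction. The median log2 change was small, at 0.24, and members differed among themselves, with an interquartile range of 0.13 to 0.46 and an SD over members of 0.28, while all tested genes had a median of -0.003 and an SD of 0.98. All 79 members reached 1 FPKM in every input library, so none was lost to the filter on low values. Without cisplatin library 3, 8 members were called lower. FPKM values are scaled by library size, so each change is relative to the other RNA of the library. The amount of RNA per cell was not measured.

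**Figure D1:**
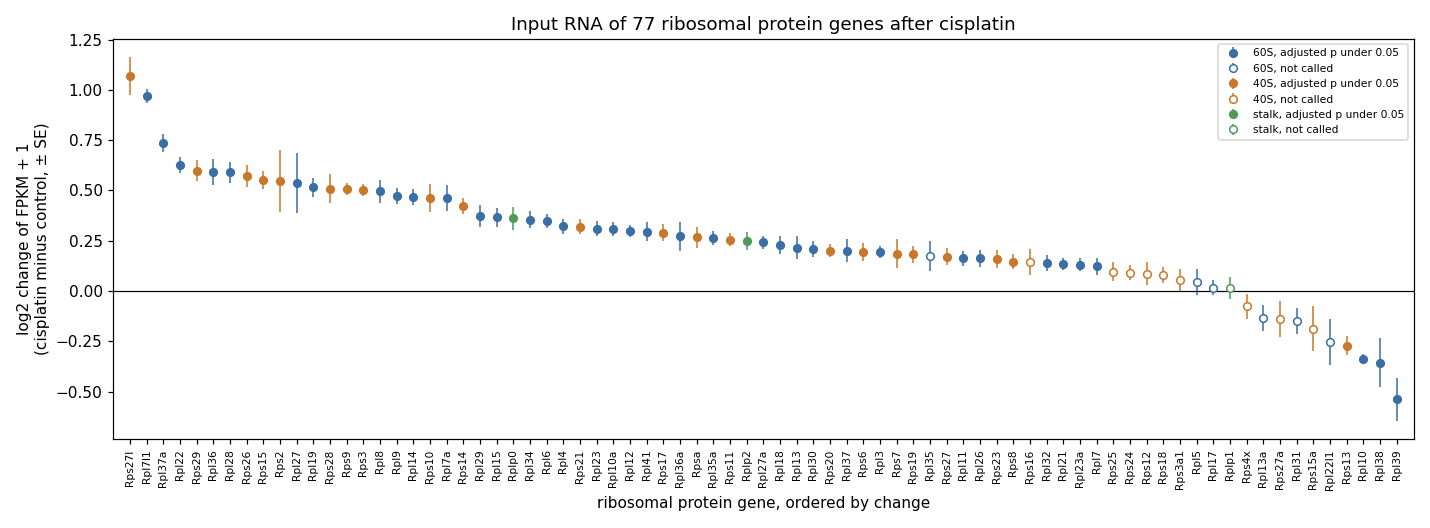
Log2 change of FPKM + 1 in input RNA, cisplatin minus control, with its SE, for 77 of the 79 genes in order of change; 3 libraries per group. The changes run from -0.54 for Rpl39 to 1.07 for Rps27l, with 57 filled points above 0 and 4 below.

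The 3 cisplatin libraries all lay above the 3 control libraries for 62 members (41.8% of all tested genes) and all below for 5 members (42.4% of all tested genes), and the groups overlapped for 12. Few of the rises were large. At 1.5-fold or more, 7 members rose, where 21.4% of tested genes did, and 0 fell, where 23.3% did, since the largest fall, in Rpl39, was -0.54 on the log2 scale. In the authors' deposited table, 60 members were higher and 6 lower at an adjusted p under 0.05, beside 37.2% and 40.6% of its 14852 genes. Among 4100 tested genes whose mean level lay within the members' range, 46.6% were called higher and their changes had an SD of 0.80. Between a member's level and its change, Spearman's rho was -0.08 over the 79 genes, which share the same 6 libraries.

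How many members were called depended on the scaling of the libraries. The deposited FPKM values have no common sum, and when each library was brought to one, 44 members were higher and 10 lower, with a member median of 0.14 and a median of all tested genes of -0.09. Under quantile normalization 31 were higher and 18 lower, with a member median of 0.07, and Rpl23a, Rpl26 and Rps23 passed from higher to lower. The share of members called higher was then 39.2%, beside 39.7% of all tested genes, so it was at the background, while at a common sum it was 55.7% beside 35.7%. The share called lower was 22.8% beside 41.99% under quantile normalization and 12.7% beside 46.1% at a common sum. Of the members called, 93.5% were higher as deposited, 81.5% at a common sum and 63.3% after quantile normalization, where of all genes called 49.4%, 43.6% and 48.6% were higher. The call of 30 of the 58 higher members and of all 4 lower members was kept under these scalings and under the median ratio. The 30 include Rps27l, Rpl7l1, Rpl37a, Rpl22, Rps29, Rpl36, Rpl19 and Rpl8.

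As a share of all FPKM in a library, the 79 genes held 8.18%, 8.22% and 8.17% in control and 9.40%, 9.21% and 9.10% with cisplatin. Every treated library was above every control library, by 1.05 percentage points on average (8.19% ± 0.026 against 9.24% ± 0.15, SD, n = 3). Over protein-coding genes alone the share went from 9.69% to 10.7%. The 2 subunits did not move quite alike: summed 40S over summed 60S and stalk RNA was 0.536, 0.533 and 0.540 in control and 0.501, 0.480 and 0.520 with cisplatin, lower in all 3 treated libraries. These sums are descriptions and lean on the most abundant members.

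**Figure D2:**
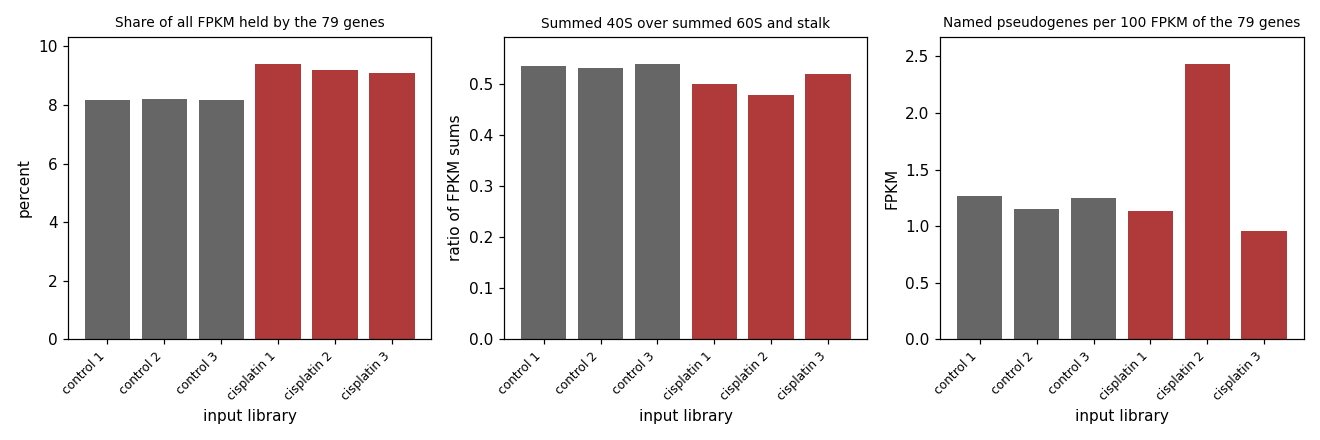
For each input library, the share of all FPKM held by the 79 genes (percent), the ratio of summed 40S to summed 60S and stalk FPKM, and the FPKM of their named pseudogenes per 100 FPKM of the 79 genes. The shares are 8.17% to 8.22% in control and 9.10% to 9.40% with cisplatin, and the pseudogene value of cisplatin library 2 is 2.43, above the other 5.

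Large-subunit genes were called higher in 34 of 44 cases and lower in 3, with a median log2 change of 0.25. Small-subunit genes were called higher in 22 of 32 cases and lower in 1, with a median of 0.20. The 4 members on the X chromosome were mixed: Rpl36a rose, Rpl10 and Rpl39 fell, and Rps4x did not pass. As a set on another ribosome, 76 mitochondrial ribosomal protein genes had 40 higher and 22 lower, a median of 0.19 and an SD of 0.66, and their share of all FPKM went from 0.320% to 0.357%.

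The TOP tract lies at the very 5′ end of an mRNA, so the RefSeq start sites of the members (GRCm38.p6) were read for a C followed by at least 4 further C or T. Of the 79 members 59 had a promoter entry, 70 entries in all. The windows of 30 bases below show 5 members with such a match exactly at the start site and 3 that have none there. They were chosen after their values were seen, to set both kinds side by side among members that rose, fell or carry peaks described here. Sequences run 5′ to 3′ on the strand of the gene, and capitals mark the match. The base before the match was not tested, and in these 5 windows it is also C or T, so the run of pyrimidines begins further upstream.
Rps6, chr4:86857352-86857381, minus strand: agcggaagtcgggcCTCTTTTTCgtgacgc
Rpl28, chr7:4792951-4792980, plus strand: cgcctctcgtgtctCTCTTTCCgtctccgg
Rps10, chr17:27635229-27635258, minus strand: cgccgcgcacgcccCTTCCTTTCCagcctc
Rpl15, chr14:18270971-18271000, minus strand: tgggagaaagccttCTTCCTTTCCTCTggc
Rpl38, chr11:114668566-114668595, plus strand: gcggaagcctcgttCTTTCCCCgttctctt
Rpl7l1, chr17:46782641-46782670, minus strand: tgaggctgcgcaagcgcagtagctgaagca
Rpl37a, chr1:72711246-72711275, plus strand: tccgctcgccggtctaaaaccgcgcatgcg
Rpl10, chrX:74270802-74270831, plus strand: ttgttacagtggaagataggccgcctatat

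A tract exactly at the start was found in 13 of the 70 member promoters (18.6%), against 2.51% of all 32851 promoters of the same length, and in 0 of 74 promoters of mitochondrial ribosomal protein genes. Within 5 bases of the start it was found for 29 of the 59 genes (49.2%), against 21.2% of all genes in the table. The ETS-type motif CCGGAAG, searched on both strands, was in 37.1% of member promoters, 33.8% of promoters of mitochondrial ribosomal protein genes, 19.0% of those of tested protein-coding genes and 8.86% of all promoters. Members with and without a tract at the start changed to a like extent: 9 of 13 were higher and 1 lower with a median of 0.25, and 33 of 46 were higher and 3 lower with a median of 0.27. Of the members shown with a tract, Rps6, Rpl28, Rps10 and Rpl15 rose and Rpl38 fell. Of those shown without, Rpl7l1 and Rpl37a rose and Rpl10 fell. A match is a run of letters in a window and not a mapped start of transcription.

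Of the 3 paralogs among the members, Rps27l and Rpl7l1 had the largest rises of all 79, and Rpl22l1 did not pass. Rps27l, a paralog of Rps27 known as a p53 target, measured 12.3, 14.3 and 13.02 FPKM in control libraries 1 to 3 and 31.6, 25.003 and 30.3 FPKM in the cisplatin libraries. The groups were far apart, at 2.19-fold, with a log2 change of 1.07 (SE 0.093, adjusted p = 2.45e-05). Rps27 itself, a zinc-finger protein of the 40S subunit, measured 10.7, 11.4 and 11.4 FPKM in control and 12.8, 12.4 and 12.8 FPKM with cisplatin, a log2 change of 0.17 (adjusted p = 0.00759). In control the pair stood at near levels per length, 13.2 and 11.2 FPKM, and with cisplatin Rps27l stood at 29.0 FPKM and Rps27 at 12.7 FPKM. Rps27 ranked 78 of the 79 members by mean level, with 252 to 395 fragments per library, where the median member had 124 FPKM in control. The sources used here do not say how reads that fit several copies were counted, so the levels of the pair may not be comparable.

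Rpl7l1 resembles Rpl7 and is found on precursors of the 60S subunit. It measured 33.2, 31.5 and 31.6 FPKM in control and 64.6, 62.0 and 64.6 FPKM with cisplatin, a log2 change of 0.97 (SE 0.035, adjusted p = 4.3e-07). Rpl7 measured 238, 231 and 238 FPKM in control and 249, 250 and 271 FPKM with cisplatin. Its log2 change was 0.12 (adjusted p = 0.0252), its groups did not overlap by a narrow margin, and the call was lost when control library 1, 2 or 3 was left out (adjusted p = 0.0602, 0.095 and 0.0586). Under quantile normalization its change was -0.0728.

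Rpl22 and Rpl22l1 went different ways. Rpl22, an RNA-binding protein of the 60S subunit that holds down its paralog in other cells, measured 40.3, 39.8 and 40.8 FPKM in control and 65.7, 60.04 and 62.6 FPKM with cisplatin, a log2 change of 0.63 (adjusted p = 4.41e-06). Rpl22l1 measured 10.4, 13.1 and 12.2 FPKM in control and 9.77, 8.38 and 11.3 FPKM with cisplatin, so the groups overlapped, at -0.25 (adjusted p = 0.0758). When control library 1 or cisplatin library 3 was left out it passed, as lower (adjusted p = 0.0338 and 0.0209). The difference between the changes of the pair was not tested.

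**Figure D3:**
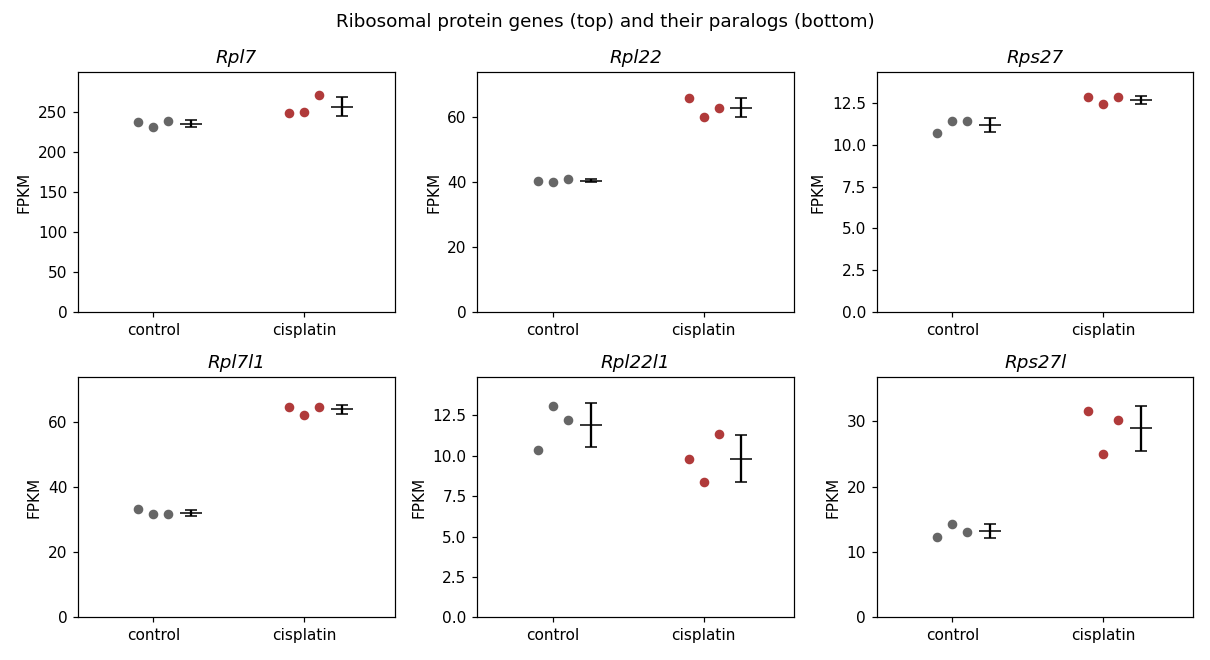
FPKM in each input library (points, 3 per group) with the mean and SD beside them for Rpl7, Rpl22 and Rps27 (top) and their paralogs Rpl7l1, Rpl22l1 and Rps27l (bottom). Rps27l and Rpl7l1 go from 13.2 to 29.0 and from 32.1 to 63.7 FPKM on average, while Rps27 and Rpl7 go from 11.2 to 12.7 and from 235 to 257 FPKM.

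Of the other members with paralogs that could be named, Rpl3, which lies near the peptidyl transferase centre, measured 498, 498 and 492 FPKM in control and 580, 567 and 557 FPKM with cisplatin, a log2 change of 0.19 (adjusted p = 0.000761) that was -0.0218 under quantile normalization. Rps4x, the X-linked form of a 40S protein, measured 731, 718 and 719 FPKM in control and 698, 624 and 740 FPKM with cisplatin. Its groups overlapped, at -0.08 (adjusted p = 0.29), and without cisplatin library 3 the change was -0.13 (adjusted p = 0.0466).

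The next largest rises were in small proteins of both subunits. Rpl37a, a zinc-binding protein of the 60S subunit, measured 19.2, 18.2 and 18.8 FPKM in control and 33.1, 32.3 and 30.1 FPKM with cisplatin, a log2 change of 0.74 (adjusted p = 3.86e-06). Rps29, a zinc-binding protein of the 40S head, measured 48.8, 51.4 and 52.8 FPKM in control and 77.1, 82.7 and 73.5 FPKM with cisplatin, a log2 change of 0.60 (adjusted p = 2.24e-05). Rpl36, a small 60S protein, measured 108, 106 and 109 FPKM in control and 163, 180 and 149 FPKM with cisplatin, a log2 change of 0.59 (adjusted p = 8.27e-05). In each of these 3 genes every treated library was above every control library. The other called rises lay between 0.12 and 0.59, among them Rpl28 at 0.59, Rps26 at 0.57 and Rps15 at 0.55, which are named after their values were seen.

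The 3 most abundant members did not all rise. Rpl19, the most abundant member and a protein that bridges the subunits, measured 2645, 2713 and 2658 FPKM in control and 3932, 3874 and 3658 FPKM with cisplatin, a log2 change of 0.52 (adjusted p = 3.63e-05). Rpl8, which lies at the peptidyl transferase centre, measured 1364, 1366 and 1332 FPKM in control and 1892, 2056 and 1787 FPKM with cisplatin, a log2 change of 0.49 (adjusted p = 0.000116). For both, the treated libraries were well clear of control. Rps3a1, a 40S protein and the second most abundant member, measured 1742, 1736 and 1773 FPKM in control and 1836, 1700 and 1927 FPKM with cisplatin, which overlapped, at 0.06 (adjusted p = 0.366). Without cisplatin library 2 it passed at 0.10 (adjusted p = 0.0323), and at a common sum its change was -0.0448.

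Few members fell. Of the 4 called lower, 3 belong to the 60S subunit, as do 44 of all 79 members, and so few genes do not set the subunits apart. Rpl39, a small X-linked protein of the exit tunnel, measured 19.9, 18.7 and 20.5 FPKM in control and 15.2, 11.008 and 13.8 FPKM with cisplatin, a log2 change of -0.54 (SE 0.11, adjusted p = 0.0022). Rpl10, X-linked and the last protein to join the 60S subunit, measured 210, 212 and 213 FPKM in control and 168, 169 and 166 FPKM with cisplatin, a log2 change of -0.34 (SE 0.027, adjusted p = 1.4e-05). Both had every treated library below every control library and kept their call when any 1 library was left out.

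Rpl38, needed in mouse embryos for the translation of Hox mRNAs, measured 132, 139 and 138 FPKM in control and 120, 85.7 and 117 FPKM with cisplatin, a log2 change of -0.36 (adjusted p = 0.0268). Cisplatin library 2 was the lowest. Without it the change was -0.20 (adjusted p = 0.00143), and without control library 2 or 3 the call was lost (adjusted p = 0.0723 and 0.0699). Rps15a, a 40S protein, did not pass: it measured 62.0, 61.8 and 60.7 FPKM in control and 57.9, 44.2 and 61.0 FPKM with cisplatin, overlapping at -0.19 (adjusted p = 0.152). Without cisplatin library 3 it passed (adjusted p = 0.0485).

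Rps13, a 40S protein, measured 32.3, 31.4 and 31.2 FPKM in control and 27.8, 24.4 and 26.03 FPKM with cisplatin, a log2 change of -0.27 (adjusted p = 0.00145). The fall was not seen when its named copies were added. Its pseudogene Rps13-ps4 stood at 0 in all 3 controls and at 7.22, 6.97 and 6.17 FPKM with cisplatin, and the sum of Rps13 and its named pseudogenes changed by 0.05 (adjusted p = 0.352). Whether reads were assigned to the wrong copy was not tested. The opposite pattern was seen for Rps15a, whose pseudogene Rps15a-ps6 went from 15.2 to 1.84 FPKM and whose sum with its copies changed by -0.44 (adjusted p = 0.00398).

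Ribosomal protein genes have many processed copies, and the table names 102 pseudogenes of 45 members. Their summed level was 268, 245 and 263 FPKM in control and 297, 616 and 242 FPKM with cisplatin, so cisplatin library 2 stood apart. That library was the highest of the cisplatin libraries for 84 of the 102 pseudogenes, for 68.5% of 1043 processed pseudogenes of any gene and for 31.6% of all genes. Among the 79 members themselves it was the highest of the cisplatin libraries for 18 and the lowest for 41. Its pseudogenes came to 2.43 FPKM per 100 FPKM of members, against 0.953 to 1.26 in the other libraries. Without this library 64 members were called higher and 5 lower, and with each member summed with its copies 60 were higher and 5 lower. That sum chose copies by name, so 5 entries named as pseudogenes but annotated as protein-coding, outside the 102, were open to it as well. The sources used here do not say how reads that fit several copies were counted, so levels of members with copies are uncertain to the extent of these values.

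The widest spread between replicates was in Rps2 and Rpl27, each with an SE of 0.15, named here after their values were seen. Rps2, a 40S protein at the mRNA entry, measured 167, 215 and 228 FPKM in control and 265, 266 and 362 FPKM with cisplatin, a log2 change of 0.55 (adjusted p = 0.0128). Rpl27, a 60S protein, measured 134, 137 and 99.5 FPKM in control and 167, 213 and 159 FPKM with cisplatin, a log2 change of 0.54 (adjusted p = 0.0122). In both, every treated library was above every control library.

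Of 4 members chosen here as known binders of Mdm2, 3 rose, a share near that of all members (73.4%). The choice need not hold every member that binds Mdm2. Rpl5 measured 1001, 989 and 995 FPKM in control and 1040, 931 and 1117 FPKM with cisplatin, which overlapped, at 0.04 (adjusted p = 0.546). Without cisplatin library 2 it passed at 0.12 (adjusted p = 0.0294). Rpl11, its partner on 5S ribosomal RNA, measured 44.4, 44.7 and 44.9 FPKM in control and 52.2, 49.9 and 48.2 FPKM with cisplatin, a log2 change of 0.16 (adjusted p = 0.00433). Under quantile normalization the changes of Rpl5 and Rpl11 were -0.14 and -0.0082.

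Rpl23, which also binds Mdm2, rose more clearly, from 258, 253 and 259 FPKM in control to 324, 305 and 326 FPKM with cisplatin, a log2 change of 0.31 (adjusted p = 0.000113). Rps7 measured 417, 405 and 401 FPKM in control and 518, 419 and 460 FPKM with cisplatin. Its lowest treated library was just above its highest control library, its log2 change was 0.19 (adjusted p = 0.0482), and the call was lost without any library except cisplatin library 2 (adjusted p = 0.0792 to 0.121). Its change was 0.11 without cisplatin library 1 and -0.0635 under quantile normalization. The 9 genes listed for this checkpoint, Rpl5 and Rpl11 included, had 7 higher and 0 lower in limma, with a median of 0.42, and the other 2, Rpl5 and Rpf2, stood at 0.04 and 0.02. Mdm2, which marks p53 for degradation and is itself a p53 target, rose from 28.5 ± 0.768 to 140 ± 6.09 FPKM (SD, n = 3). Rrs1 and Sdad1, both factors of 60S assembly, rose by 1.00 and 1.11 on the log2 scale, each with 3 of 3 treated libraries above control.

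The stalk recruits the elongation factors. Rplp0, its base, measured 880, 894 and 869 FPKM in control and 1135, 1213 and 1051 FPKM with cisplatin, a log2 change of 0.36 (adjusted p = 0.000597). Rplp2 measured 53.7, 55.7 and 52.3 FPKM in control and 67.7, 61.3 and 63.9 FPKM with cisplatin, a log2 change of 0.25 (adjusted p = 0.00131). Rplp1, which pairs with Rplp2 on the stalk, measured 342, 345 and 314 FPKM in control and 358, 319 and 335 FPKM with cisplatin, which overlapped, at 0.01 (adjusted p = 0.819), and its sign turned at a common sum and under quantile normalization (-0.0852 and -0.21).

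Rps6, the substrate of the S6 kinases, measured 280, 266 and 278 FPKM in control and 317, 299 and 329 FPKM with cisplatin, a log2 change of 0.20 (adjusted p = 0.00434) that was -0.0082 under quantile normalization. Rpsa, a 40S protein also known as a laminin receptor, measured 241, 248 and 245 FPKM in control and 292, 318 and 276 FPKM with cisplatin, a log2 change of 0.27 (adjusted p = 0.00205). Both had treated libraries wholly above control. Rps27a, made as a fusion with ubiquitin, measured 113, 107 and 108 FPKM in control and 104, 85.4 and 109 FPKM with cisplatin, which overlapped, at -0.14 (adjusted p = 0.177). Fau, another fusion of a ubiquitin-like protein with a ribosomal protein, did not pass either, at 0.02 (adjusted p = 0.635).

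The genes around ribosomal protein supply are read against the same background of 40.1% higher and 41.1% lower. Of 17 other mRNAs known for TOP tracts, 13 were higher and 3 lower, with a median of 0.33. Vim is also on the list of epithelial markers, and Nap1l1 also on that of chaperones. The elongation factor gene Eef1g went from 349 ± 4.62 to 505 ± 16.6 FPKM (SD, n = 3), Vim from 393 ± 5.94 to 663 ± 26.03 FPKM and Hnrnpa1, which encodes a splicing factor, rose by 1.17 on the log2 scale (adjusted p = 4.56e-07).

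Of 14 chaperones and importers that guard ribosomal proteins on their way to the nucleus, 9 were higher and 1 lower, with a median of 0.41. Heatr3, which helps import Rpl5, rose from 8.52 to 20.4 FPKM (log2 change 1.17, adjusted p = 1.18e-06), and Grwd1, the chaperone of Rpl3, rose from 19.3 to 39.1 FPKM (0.98, adjusted p = 1.92e-06). Kpnb1, the general import receptor, rose from 107 to 210 FPKM (0.97, adjusted p = 2.58e-07). All 7 genes listed for 60S export and release of its late factors were higher, with a median of 0.81; Sbds rose by 1.84, Eif6 by 0.92 and Lsg1 by 0.54 on the log2 scale.

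Genes of TOP mRNA control went both ways. Of 16 tested, 6 were higher and 8 lower, with a median of -0.03. Mtor, the kinase of both complexes, fell from 19.2 to 11.7 FPKM (log2 change -0.67, adjusted p = 3.82e-06), while its inhibitors went both ways: Akt1s1 and Tsc2 rose by 0.59 and 0.60 on the log2 scale, Deptor fell (-0.51, adjusted p = 8.33e-05) and Tsc1 did not pass (0.05). Rheb, its activator, rose by 0.42. Larp1, which binds the TOP tract, changed by -0.10 (adjusted p = 0.0107); Deptor, Tsc1, Rheb and Larp1 are named after their values were seen. Of 9 genes listed for small-subunit quality control and ubiquitylation of ribosomal proteins, 3 were higher and 2 lower. Rnf10 and Zfp598, ubiquitin ligases for 40S proteins, rose by 0.52 and 0.71, and Huwe1 changed by -0.29.

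The peak table was searched for the same genes, and 65 of the 79 members (82.3%) had an ac4C peak, against 65.6% of all tested genes. A peak is a stretch of a transcript in which IP reads exceeded input reads; 31 members had 1 peak, 24 had 2, 5 had 3 and 5 had 4. The 14 without a peak include Rpl19, the most abundant member, and Rpl39, Rpl22l1 and Rpl36. Fold enrichment, the authors' ratio of IP to input per peak, had a median of 3.73 over member peaks and 7.05 over all peaks. Values under 2 made up 25.4% of member peaks and 6.33% of all peaks. Abundant genes of other kinds had lower values still. Over 523 peaks of non-member genes at or above the median member level, the median was 2.62 and 33.3% lay under 2.

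By the authors' annotation, 58 member peaks lay in the class called exon (50.9%, against 17.7% of all peaks), 41 in coding sequence (36.0% against 50.5%), 11 in 3′ untranslated regions (9.65% against 29.5%) and 4 in 5′ untranslated regions (3.51% against 2.28%). Along the gene from its 5′ end, 29 peak centres fell in the first part of 3 equal parts, 36 in the middle and 49 in the last.

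Each peak carries the authors' log2 difference between treatments, and the file does not say which treatment is above for a positive value, so only signs are given. In the authors' deposited table, of the 114 member peaks 92 (80.7%) passed an adjusted p of 0.05, where 46.2% of all peaks did. Of these, 63 were positive, where 36.5% of all peaks were, and 29 negative, where 9.62% were. Abundant genes of other kinds had like shares: of 523 peaks of non-member genes at or above the median member level, 87.4% passed, 60.6% with a positive and 26.8% with a negative difference. The median signed difference was 0.77 over member peaks, 0.92 over those 523 peaks and 1.58 over all peaks. An absolute log2 difference of 1 was reached by 52 of the 92 called member peaks. It was reached by 298 of the 457 called peaks of those abundant genes and by 8129 of all 8792 called peaks.

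**Figure D4:**
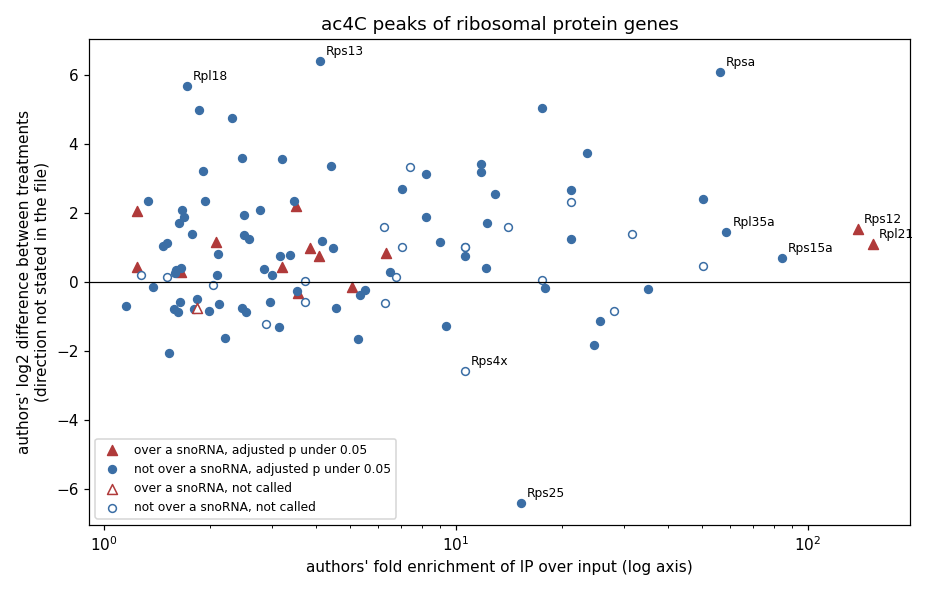
Of the 114 ac4C peaks of ribosomal protein genes, 111 are drawn with values of the authors' deposited table: fold enrichment of IP over input (log axis) against the log2 difference between treatments, whose direction the file does not state. Triangles are 14 peaks over a snoRNA and filled symbols 90 called peaks; enrichment runs from 1.16 to 153 and differences from -6.41 to 6.40.

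The sign differed within genes as well as between them. Of 61 members with a called peak, 33 had positive peaks alone, 14 negative alone and 14 both. In the 60S genes 33 called peaks were positive and 19 negative, and in the 40S genes 30 were positive and 8 negative. Set beside the input calls, 44 positive and 21 negative peaks lay in genes whose RNA rose, and 4 positive and 0 negative peaks in genes whose RNA fell. The remaining called peaks lay in genes whose RNA did not pass. As a base, 63 of all 92 called member peaks were positive and 29 negative, and 73.4% of members rose. A link between the sign of a peak and the RNA change was not tested.

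The largest positive differences in the authors' deposited table were in Rps13 (6.40, chr7:116332402-116332611), Rpsa (6.09, chr9:120131622-120131801) and Rpl18 (5.66, chr7:45719254-45719683). The Rpsa peak lies in the 3′ untranslated region and had a fold enrichment of 56.4, while the Rpl18 peak, in coding sequence, had a fold enrichment of 1.72. Rpl14 (5.04), Rpl15 (4.97) and Rpl28 (4.76) followed. The authors' adjusted p scores on the log10 scale were far from equal, at -125 for Rps13, -2.22 for Rpsa and -312 for Rpl18. They were -2.49 for Rpl14, -4.91 for Rpl15 and -13.2 for Rpl28, so Rpsa and Rpl14 had the weakest scores among these peaks. Rpl18, a 60S protein, also held a peak of the opposite sign, at -2.08 (chr7:45719892-45720072), downstream of the first.

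The largest negative difference was in Rps25, a 40S protein needed for internal ribosome entry of several viruses, at -6.41 in the 3′ untranslated region (chr9:44410278-44410427), where fold enrichment was 15.3. The same gene had a positive peak of 1.16 in its 5′ untranslated region. In the authors' deposited table the next were Rps4x at -2.58, which did not pass, the Rpl18 peak above, Rpl30 at -1.83, Rpl37 at -1.67 and Rpl27a at -1.63. The Rpl37 peak is among 5 member peaks, of 37 in all, that share the lowest adjusted p score in the table, -434 on the log10 scale, and so have no order among themselves.

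High enrichment was found in the authors' deposited table for Rpl21 at 153 (chr5:146834847-146835333, log2 difference 1.09), Rps12 at 139 and Rps15a at 84.6. The members with the largest RNA changes did not share a pattern of peaks. Rps27l had 1 peak (enrichment 50.5, difference 2.41) and Rpl7l1 had 2 (12.9 and 2.54, 1.94 and 2.35), all positive and called. Rpl22 had 4, of which 1 was called positive (3.60) and 1 negative (-0.763), and Rps29 had 1 of each sign (1.88 and -1.14).

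Among members that fell, Rpl10 had 1 peak at 2.33, Rpl38 had 1 at 0.193 and Rps13 had 2, at 6.40 and 0.968, all called positive in the authors' deposited table. Rpl37a had 1 peak that did not pass, and of 3 peaks in Rps15a the coding peak passed, at 0.679. Neither Rpl36 nor Rpl39 had a peak.

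Many ribosomal protein genes carry small nucleolar RNAs, guides of ribosomal RNA modification, in their introns. RefSeq places 59 snoRNA genes within 30 members, and 15 member peaks in 13 of these hosts overlap one (13.2%, against 0.33% of all peaks, 63 of 19049). The strongest were Rpl21 (enrichment 153) and the Rps12 peak over Snora33 (139), and a second Rps12 peak lies over Snord100 (3.51). Of the 15, 14 passed in the authors' deposited table (93.3%), 11 of them positive and 3 negative. Of the member peaks not over a snoRNA 78.8% passed, and of all 63 peaks over a snoRNA 46.0% passed, near the 46.2% of all peaks. Without these 15 peaks, 52 member peaks were called positive and 26 negative. In input RNA 20 of the 30 hosts rose and 3 fell with a median log2 change of 0.20, and 38 of the 49 other members rose and 1 fell with a median of 0.31. Reads of a snoRNA and of its host within a peak cannot be told apart in these values.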

How the data were processed

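RNA was measured in 6 input libraries of ID8 cells, and ac4C peaks from 12 libraries. Per the submitters' processing notes, the tools were fastp, FastQC, HISAT2 and HOMER, on the build mm10; the sources used here give no versions, peak caller or counting rule. The authors deposited FPKM values per gene, which are scaled by gene length and library size, with their own log2 fold change and adjusted p-value. The deposited peak table holds, per the file headers, a fold enrichment (ratio of IP to input), a log2 difference and log10 p-value scores per peak, for 1 comparison with no value per library. Coordinates are those of the authors on mm10, counted from 1.

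The test ran on log2(FPKM + 1) of genes that reached 1 FPKM in at least 3 input libraries, with limma 3.58.1 (R 4.3.3; lmFit, then eBayes with trend), 3 cisplatin against 3 control libraries, with Benjamini-Hochberg adjustment over all genes tested. Fold changes on this scale understate the change of low genes. Whole fragments per gene were recovered from the deposited FPKM steps for 14851 of 14852 genes (tolerance 0.0001) and gave relative depth. At the depth of these libraries each member had between 227 and 120897 fragments per library. Tables were handled in Python 3.11.15 with pandas 2.3.3.

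The members and lists were chosen with earlier results of these data known. Values per library are given for the 6 members with the largest rise and the 6 with the largest fall. They are also given for paralogs and their partners, chosen binders of Mdm2, the stalk, Rps6, Rps27a and Rpsa, and the 3 most abundant. The peaks named are the 6 with the largest positive and the 6 with the largest negative difference, the 4 with the highest enrichment and those of the members just described, and up to 3 genes per list by adjusted p are named. Some values that this rule names are not reported here, and their genes are left out of the plots but kept in all counts. Start-site windows come from RefSeq (GRCm38.p6). Alternatives covered the pseudocount, filter, scaling, test, replicate block and each left-out library; leaving out peaks over snoRNAs and summing members with pseudogenes were chosen after seeing the data. The labels do not say whether replicate numbers pair the libraries, and the main fit did not pair them. Between control and cisplatin libraries of the same number, r of the deviations was 0.0975, -0.116 and 0.0428 for replicates 1 to 3. Between libraries of unlike number it was -0.166 to 0.0777. These values cannot show whether the design was paired.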

Additional observations from a re-analysis of the deposited data

How the results depend on the processing

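Of 58 higher and 4 lower members, a pseudocount of 0.1, no filter, a filter at 5 FPKM, the median ratio, voom on recovered fragments (59 and 6), the authors' test and summing with pseudogenes changed neither count by more than 1.5 times. At a common sum 10 were lower, with a median log2 change of 0.144, and Rplp1 (-0.0852), Rpl5 (-0.0552) and Rps3a1 (-0.0448) changed sign. Quantile normalization gave 31 higher (39.2%, beside 39.7% of all tested genes), 18 lower and a median of 0.0723, and Rplp1 (-0.21), Rpl5 (-0.14), Rpl7 (-0.0728), Rpl11 (-0.0082), Rps7 (-0.0635), Rpl3 (-0.0218) and Rps6 (-0.0082) changed sign. The cause was not tested. Summing with pseudogenes turned Rps13 to 0.0502.

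Leaving out each library in turn gave 55 to 64 members higher, 3 to 8 lower, a median of 0.229 to 0.260 and a gain in share of 0.967 to 1.11 percentage points. The 8 lower came without cisplatin replicate 3. Rplp1 ranged from -0.0302 (without cisplatin replicate 1; -0.0288 without control replicate 3) to 0.0543, and Rpl5 from -0.0163 (without cisplatin replicate 3) to 0.115. With the replicate number as a block, 58 members were higher and 5 lower, and no call of the 29 members named by the rule changed.

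Of the called peaks, 28 positive and 12 negative had a fold enrichment of at least 4, and 9 negative an absolute log2 difference of at least 1. With 3 libraries a group, changes near 0.1 on the log2 scale could be called only where replicates were tight.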

Other observations

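Rpl24, a 60S protein whose RNA level was not analysed here, had 2 peaks in coding sequence in the authors' deposited table. Their log2 differences were of opposite sign, 2.43 (chr16:55970094-55971406, fold enrichment 2.09) and -0.80 (chr16:55966540-55969727, fold enrichment 2.07).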
